A study of Mus musculus with 12 samples.

Results

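Expression of 10 genes of fatty acid uptake and lipid storage was followed through fibroblast cultures driven towards muscle with and without the histone demethylase gene Kdm5a and the retinoblastoma gene Rb1. The genes were Cd36, Slc27a1, Lpl, Fabp3, Fabp4, Fitm1, Fitm2, Plin2, Pparg and Cebpa, out of 36229 gene identifiers measured. They were chosen from measured values, because earlier work on these libraries picked Cd36 and Fitm1 for their response to loss of Kdm5a in cells without Rb1. The comparisons that chose them are therefore described below without a test. Other tests of Cd36 and Fitm1 that use the same libraries share values with the choice and are not independent of it. Mouse embryonic fibroblasts of strain C57BL/6 were transduced with an adenovirus carrying MyoD, the factor that starts the muscle programme, for 24 hours in DMEM with 2% horse serum and 10 µg/ml insulin. Fresh medium of the same composition followed for 72 hours. All groups received virus and insulin, so there is no group without MyoD. The genotypes were wild type (WT), Kdm5a-/- (Kdm5a KO), Rb1-/- (Rb1 KO) and Kdm5a-/-;Rb1-/- (double knockout, DKO). RNA came from the whole culture, called mixed here, in all 4 genotypes, and from myotubes separated by size exclusion gravity, called purified, in WT and DKO. Each of the 6 groups had 2 libraries, 12 in all. For mixed libraries ribosomal RNA was removed and 40 bases were sequenced. Purified libraries were selected by 2 rounds of oligo(dT), amplified by 15 PCR cycles and sequenced for 36 bases, after the sorted cells had recovered for 24 hours in medium conditioned by other fibroblasts for 48 hours. The labels do not say whether replicates were separate cultures, so the p-values below measure the spread between these libraries only.

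Muscle takes up fatty acids both to burn them and to store them as triglyceride in droplets. Lipoprotein lipase (Lpl) frees fatty acids from circulating lipoproteins, CD36 and the transporter FATP1 (Slc27a1) bring them into the cell, and fatty acid binding proteins carry them through the cytosol, with Fabp3 typical of heart and skeletal muscle and Fabp4 of adipocytes and macrophages. The FIT proteins help package triglyceride into droplets, Fitm1 mainly in skeletal muscle and Fitm2 more widely, and perilipin 2 (Plin2) coats the droplet. PPARγ (Pparg) and C/EBPα (Cebpa) are transcription factors that drive fat cell differentiation and switch on many of these genes.

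Recovered read totals were 11983750 to 41309134 in the mixed libraries and 8688604 to 15570731 in the purified ones. The DKO purified libraries stood apart from each other, with a median absolute difference of 0.51 on the log2 scale against 0.11 to 0.18 between the libraries of the other 5 groups. Reads remained at the targeted genes in the knockouts, with Kdm5a at 1088 to 1192 in Kdm5a KO against 1637 to 1871 in WT mixed and Rb1 at 4448 to 4457 in Rb1 KO against 5616 to 5649.5 in WT mixed. In DKO mixed libraries Kdm5a was at 1319 to 1369.7 and Rb1 at 5309 to 5662, which overlaps the WT mixed range. In purified libraries Kdm5a was at 614 to 787 in DKO against 2775 to 3033 in WT, and Rb1 at 2104 to 2356 against 3218 to 3500. The labels do not state which part of either gene is deleted, and both share exons with other genes, so these values do not check the labels. Xist was at 0 in the WT and Rb1 KO mixed libraries, and at 3109.9 to 6933 in the Kdm5a KO and DKO mixed libraries, where the Y-linked gene Ddx3y was at 0. In purified libraries Xist was at 9261 to 9881 in DKO and 1.86 to 2.48 in WT, and Ddx3y at 0 in DKO and 2548 to 2752 in WT. In comparisons of Kdm5a-deficient with Kdm5a-intact cultures or myotubes, sex and genotype therefore cannot be told apart. Summed levels of 14 genes of differentiated muscle, named in the processing section as all marker lists are, were 444143 to 480557 in WT mixed, 404196 to 427209 in Kdm5a KO, 67980 to 68901 in Rb1 KO and 189972 to 204770 in DKO mixed. Summed levels of 12 fibroblast genes were 15288 to 15477, 13408 to 14148, 94279 to 111997 and 16524 to 17565 in the same order. Adipocyte markers were scarce in each group: their 12-gene sums lay between 97.0 and 341, and no more than 4 of the 12 had a mean of 10 or more. The sum was 97.0 to 148 in WT mixed, 188 to 228 in Kdm5a KO, 162 to 185 in Rb1 KO and 251 to 263 in DKO mixed. At 0 were Retn, Plin1, Slc36a2 and Pck1 in WT mixed, and Lep, Retn, Cidec and Slc36a2 in Kdm5a KO. In Rb1 KO Adipoq, Lep and Cidec were at 0, and in DKO mixed all 12 had reads.

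The sequence upstream of the start is shown for Cd36 and Fitm1, the genes whose pattern led to the choice. It comes from RefSeq (GRCm38.p6), reads 5′ to 3′ along the gene's own strand, and has each match to the E-box pattern CANNTG, the form bound by MyoD and related factors, in capitals. The Cd36 window is chr5:17835897-17836146 on the minus strand, the 250 bases before the start. The Fitm1 window is chr14:55575424-55575616 on the plus strand, from 250 to 58 bases before the start, with 57 bases that an annotated exon covers left out.
Cd36: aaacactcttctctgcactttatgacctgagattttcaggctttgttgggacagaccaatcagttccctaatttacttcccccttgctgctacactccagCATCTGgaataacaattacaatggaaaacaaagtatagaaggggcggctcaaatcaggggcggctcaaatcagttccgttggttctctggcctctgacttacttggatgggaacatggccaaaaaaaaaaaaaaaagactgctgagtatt
Fitm1: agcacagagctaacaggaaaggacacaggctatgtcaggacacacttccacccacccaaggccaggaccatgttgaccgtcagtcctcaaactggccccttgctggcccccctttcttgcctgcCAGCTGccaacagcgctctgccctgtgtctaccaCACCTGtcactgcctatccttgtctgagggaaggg
The Cd36 window holds 1 CANNTG match, and the Fitm1 window holds 2, one of which is CAGCTG. Of the 8 genes of the set with a RefSeq window (all but Lpl and Fabp4), 6 hold CANNTG within 250 bases before a start on either strand. Some genes have several starts, and 9 of their 12 windows hold it, against 66.2% of all 32851 windows. CAGCTG, which is contained in CANNTG, was found for Fitm1, Plin2 and Slc27a1, in 3 of the 12 windows, against 13.0% of all windows. AGGTCA, the core site of nuclear receptors such as PPARγ, was found for Cd36, Plin2 and Pparg, in 4 of the 12 windows, against 14.0% of all windows. TTCCCGC, an E2F pattern, was found for Fabp3, in 1 of the 12 windows, against 3.82% of all windows. These matches describe letters in the windows, not bound sites.

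With loss of Rb1 in mixed cultures, Slc27a1 and Plin2 rose against WT, Lpl, Fabp3, Fitm2 and Pparg fell, and Cebpa did not pass the test. Cd36 and Fitm1 were lower in Rb1 KO than in WT. Their 2 effects of Rb1 loss, with Kdm5a present and with it absent, differ by exactly the quantity that chose them, so both effects are described for these genes without a test. Of the other 7 genes abundant enough to test, 6 passed, 2 upwards and 4 downwards (median change -0.48 on the log2 scale), where 71.1% of all 17199 tested genes passed (36.8% up and 34.3% down, median 0.03). With Kdm5a also absent the loss of Rb1 (DKO against Kdm5a KO) gave 5 calls among these 7, 1 upwards and 4 downwards (median -0.50), against 67.2% of all genes (33.7% up and 33.4% down). Slc27a1 rose, Lpl, Fitm2, Plin2 and Cebpa fell, and Fabp3 and Pparg did not pass, while Cd36 and Fitm1 were higher in DKO than in Kdm5a KO. The levels in this bulk RNA do not tell fewer expressing cells from less RNA per cell.

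**Figure D1:**
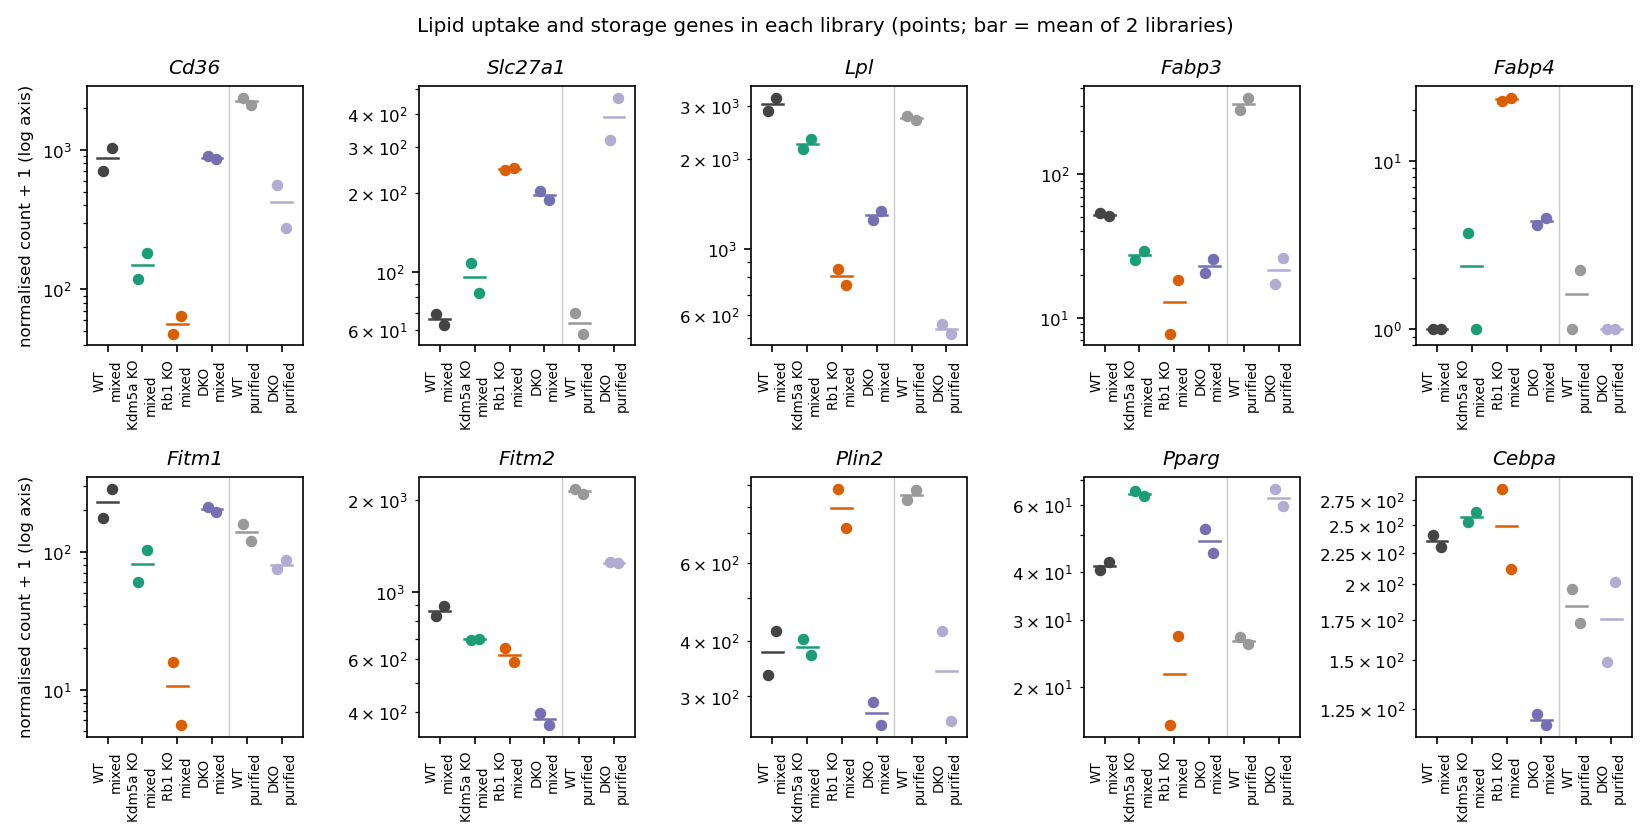
Normalised counts plus 1 (log axis, one panel per gene, axes differ between panels) for the 10 genes in each of the 12 libraries; points are libraries and bars are means of 2. Cd36 and Fitm1 lie lowest in the Rb1 KO libraries and within the WT mixed range in the DKO mixed libraries.

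Of the uptake genes, Cd36, the membrane receptor for long-chain fatty acids, had the widest span over the 6 groups, 40.3-fold between the highest and lowest group mean. Its normalised counts were 704 and 1031 in WT mixed, 118 and 182 in Kdm5a KO, 47.3 and 63.4 in Rb1 KO, and 904 and 853 in DKO. The Rb1 KO libraries were the lowest and the Kdm5a KO libraries the next lowest, and the DKO libraries lay inside the WT range. The mean was 867 ± 231 in WT and 55.3 ± 11.4 in Rb1 KO (SD, n = 2 each), a difference of -3.94 ± 0.22 (SE) on the log2 scale, and 150 ± 45.6 in Kdm5a KO and 879 ± 35.6 in DKO, a difference of 2.58 ± 0.22. DKO against WT gave 0.04 ± 0.22 (95% interval -0.44 to 0.53, limma adjusted p = 0.871), so a change of up to about that width in either direction was not resolved. Both groups took part in choosing Cd36, so this p-value is not independent of the choice.

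Slc27a1, the transporter that also activates fatty acids, ran the other way. It stood at 68.2 and 61.8 in WT mixed, 107 and 81.9 in Kdm5a KO, 244 and 247 in Rb1 KO, and 203 and 186 in DKO. No library of the Rb1-deficient groups overlapped with a library of the Rb1-intact groups. Slc27a1 rose 3.78-fold with Rb1 loss (1.90 ± 0.20, limma adjusted p = 1.73e-06), rose 2.07-fold from Kdm5a KO to DKO (1.05 ± 0.20, limma adjusted p = 0.000398), and was above WT in DKO (1.57 ± 0.20, limma adjusted p = 1.25e-05). Lpl, the secreted lipase, was at 2885 and 3194 in WT, 2152 and 2326 in Kdm5a KO, 855 and 756 in Rb1 KO, and 1247 and 1337 in DKO. Its 4 Rb1-deficient libraries were all below its 4 Rb1-intact libraries. Lpl fell by 1.92 with Rb1 loss (SE 0.08, limma adjusted p = 4.23e-10), by 0.79 from Kdm5a KO to DKO (SE 0.08, limma adjusted p = 2.28e-06) and by 1.23 from WT to DKO (SE 0.08, limma adjusted p = 3.44e-08).

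The cytosolic carriers were at low levels in mixed cultures. Fabp3, the muscle carrier, was at 52.6 and 50.1 in WT, 24.4 and 28.0 in Kdm5a KO, 6.75 and 17.2 in Rb1 KO, and 19.5 and 24.5 in DKO. WT was highest, and the Kdm5a KO and DKO libraries overlapped. Fabp3 fell by 2.14 in Rb1 KO (SE 0.44, limma adjusted p = 0.000797), and from Kdm5a KO to DKO it changed by -0.25 ± 0.44 (95% interval -1.21 to 0.71, limma adjusted p = 0.638). It passed downwards from WT to DKO (-1.20 ± 0.44, limma adjusted p = 0.0295), a call that ended without the filter on low values (limma adjusted p = 0.0633) and without each of WT mixed replicate 1 (0.0822), WT mixed replicate 2 (0.0669), DKO mixed replicate 1 (0.152) and DKO mixed replicate 2 (0.0697). Its exons overlap Gm10570 and Zcchc17 on the other strand, and the counting is not stated to use strand, so its values are uncertain.

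Fabp4, the adipocyte and macrophage carrier, was too low to test. It had 0 reads in both WT mixed libraries, 3 and 0 in Kdm5a KO, 16 and 25 in Rb1 KO, 6 and 9 in DKO, 0 and 1 in WT purified and 0 in both DKO purified libraries. The Rb1 KO libraries had the most, and their level over the group was 13.1-fold the WT mixed level that 3 reads over the group would give. That ratio leaves out the counting error of the 41 Rb1 KO reads, so it is not a lower limit. The ratio of Rb1 KO to DKO was 6.56 (95% interval 3.56 to 12.8, covering counting error only). In the same Rb1 KO libraries all 12 macrophage markers had a mean of 10 or more, against 4 in WT mixed, 5 in Kdm5a KO and 6 in DKO mixed, among them Lyz2 at 66.5 against 2.80, 4.71 and 10.8. The macrophage sum itself was not higher there: it was 424 to 490 in Rb1 KO and 859 to 956 in WT mixed, with Itgam at 703 of the WT mean. Endothelial markers, another class that can carry Fabp4 and Cd36, summed to 424 to 523 in WT, 512 to 592 in Kdm5a KO, 489 to 533 in Rb1 KO and 1212 to 1263 in DKO mixed, with Tie1 at 0 in all 4. The part of either cell type in the levels of Fabp4 and Cd36 was not tested.

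Of the droplet genes in mixed cultures, Fitm1 was lowest in Rb1 KO, Fitm2 was lowest in DKO and Plin2 was highest in Rb1 KO. Fitm1, the muscle form of the triglyceride-packaging protein, was at 173 and 281 in WT, 58.8 and 102 in Kdm5a KO, 14.9 and 4.53 in Rb1 KO, and 209 and 193 in DKO. The Rb1 KO libraries held 11 and 5 reads of it, the DKO libraries lay within the WT range, and Kdm5a KO lay between. The mean was 227 ± 76.3 in WT and 9.69 ± 7.30 in Rb1 KO, a difference of -4.57 ± 0.44, and the difference of DKO from Kdm5a KO was 1.37 ± 0.44. DKO against WT gave -0.14 ± 0.44 (95% interval -1.09 to 0.81, limma adjusted p = 0.795). Both groups took part in choosing Fitm1, so this p-value is not independent of the choice. Fitm2, the widely expressed form, was at 832 and 892 in WT, 694 and 697 in Kdm5a KO, 652 and 586 in Rb1 KO, and 398 and 362 in DKO. It was lowest in DKO, the group where Fitm1 was near its highest, and fell in all 3 comparisons: by 0.48 with Rb1 loss (SE 0.10, limma adjusted p = 0.000698), by 0.87 from Kdm5a KO to DKO and by 1.18 from WT to DKO. Both genes overlap an antisense transcript (Gm15932 at Fitm1, 2310001K24Rik at Fitm2), so their values are uncertain.

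Divided by exonic length in kilobases, the Fitm1 level over the Fitm2 level was 0.852 and 1.29 in WT mixed, 0.346 and 0.595 in Kdm5a KO, 0.0930 and 0.0316 in Rb1 KO, and 2.14 and 2.18 in DKO mixed. The 4 genotypes did not overlap in this ratio in mixed cultures. Fitm1 was chosen from its levels in these groups, so that separation is not independent of the choice. DKO was the only mixed group in which both libraries had more Fitm1 than Fitm2 per length. In purified myotubes the ratio was 0.298 and 0.230 in WT and 0.240 and 0.282 in DKO, with overlapping libraries. Plin2, the droplet coat protein, was at 335 and 420.0 in WT, 403 and 371 in Kdm5a KO, 878 and 719 in Rb1 KO, and 291 and 258 in DKO. The Rb1 KO libraries stood above all other mixed libraries. Plin2 rose 2.11-fold with Rb1 loss (1.08 ± 0.14, limma adjusted p = 1.54e-05). It fell by 0.50 from Kdm5a KO to DKO (SE 0.14, limma adjusted p = 0.00703) and by 0.45 from WT to DKO (SE 0.14, limma adjusted p = 0.0121). The former call ended without Kdm5a KO replicate 1 (limma adjusted p = 0.0538) or DKO mixed replicate 2 (0.0681). The latter ended without WT mixed replicate 2 (-0.29, limma adjusted p = 0.109) or DKO mixed replicate 2 (0.0992).

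Of the regulators, Pparg was at 39.5 and 41.6 in WT, 64.2 and 62.3 in Kdm5a KO, 14.9 and 26.2 in Rb1 KO, and 51.0 and 43.9 in DKO. Among the mixed cultures it was lowest in Rb1 KO, where Plin2 and Slc27a1 were highest. Pparg fell by 1.0 with Rb1 loss (SE 0.34, limma adjusted p = 0.0187). The call ended without Rb1 KO replicate 1 (-0.61, limma adjusted p = 0.142), without WT mixed replicate 2 (limma adjusted p = 0.0529), in a fit of those 2 groups alone (limma adjusted p = 0.0681) and with DESeq2 (adjusted p = 0.0563). Cebpa was at 239 and 229 in WT, 251 and 262 in Kdm5a KO, 285 and 211 in Rb1 KO, and 122 and 117 in DKO. The 6 libraries other than DKO spanned 211 to 285, and both DKO libraries lay below them. Cebpa did not pass in Rb1 KO against WT (0.07 ± 0.17, limma adjusted p = 0.741) and fell by 1.10 from Kdm5a KO to DKO (SE 0.17, limma adjusted p = 7.44e-05) and by 0.97 from WT to DKO (SE 0.17, limma adjusted p = 0.000217). Its exons overlap the antisense transcript Gm45091, so its values are uncertain.

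DKO against WT in mixed cultures gave 6 calls among the 9 genes, 1 upwards (Slc27a1) and 5 downwards (Lpl, Fabp3, Fitm2, Plin2 and Cebpa), where 67.9% of all tested genes passed (34.0% up and 33.9% down). The median change was -0.45 over the 9 genes and 0.00 over all tested genes. Cd36, Fitm1 and Pparg did not pass (Pparg 0.22 ± 0.34, 95% interval -0.52 to 0.96, limma adjusted p = 0.586). The DKO libraries of Cd36 and Fitm1 lay within the WT range, in cultures whose muscle marker sum was 189972 to 204770 against 444143 to 480557 in WT. The comparisons with WT share the WT libraries, and those with DKO share the DKO libraries. The count and median above include Cd36 and Fitm1, which were chosen partly from these libraries. The tests of these genes here are not independent of the choice.

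**Figure D2:**
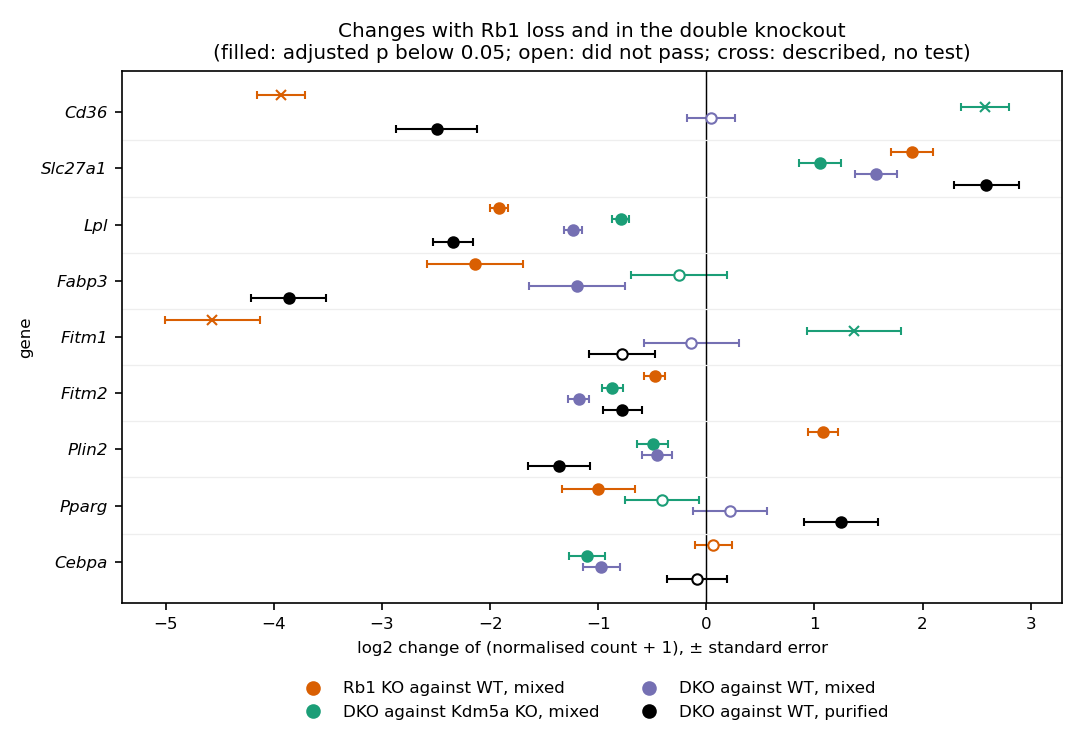
Log2 change of (normalised count + 1) with its standard error for the 9 tested genes: Rb1 KO against WT, DKO against Kdm5a KO and DKO against WT in mixed cultures, and DKO against WT in purified myotubes. Filled points passed limma at adjusted p below 0.05, open points did not, and crosses are described without a test; Cd36 lies at -3.94 in Rb1 KO and at 0.04 in DKO mixed cultures.

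The effect of Kdm5a loss, which chose the genes, is given here without a test. The grounds for the choice described Cd36 and Fitm1 as responding to Kdm5a loss only where Rb1 was absent, and the values do not show that. With Rb1 present, both were lower in Kdm5a KO than in WT, with no overlap between libraries: Cd36 differed by -2.53 ± 0.22 and Fitm1 by -1.50 ± 0.44. Without Rb1 both were higher in DKO than in Rb1 KO, Cd36 by 3.98 ± 0.22 (15.9-fold) and Fitm1 by 4.43 ± 0.44 (20.7-fold). Both genes therefore differed in each background, in opposite directions, and the difference between the directions was 6.51 ± 0.32 for Cd36 and 5.93 ± 0.62 for Fitm1. Lpl and Fabp3 showed the same opposite signs at smaller sizes, Lpl at -0.44 ± 0.08 and 0.68 ± 0.08 and Fabp3 at -0.95 ± 0.44 and 0.94 ± 0.44. Slc27a1 had the reverse signs, 0.52 ± 0.20 with Rb1 and -0.34 ± 0.20 without.

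Plin2 was 0.04 ± 0.14 with Rb1 and -1.53 ± 0.14 without, and Cebpa 0.13 ± 0.17 and -1.04 ± 0.17. Fitm2 was lower in both backgrounds (-0.31 ± 0.10 and -0.70 ± 0.10) and Pparg higher in both (0.63 ± 0.34 and 1.22 ± 0.34). Libraries of DKO and Rb1 KO did not overlap for any of the 9 genes, 5 higher and 4 lower in DKO, where 77.2% of all tested genes did not overlap (37.9% higher and 39.3% lower). Libraries of Kdm5a KO and WT did not overlap for 8 of the 9, 3 higher and 5 lower in Kdm5a KO, with Plin2 the exception, against 61.1% of all tested genes (31.1% higher and 29.9% lower). Both counts include Cd36 and Fitm1, which these comparisons chose, so they are not to be read as an excess over all genes. Of all tested genes 27.2% passed in Kdm5a KO against WT and 47.3% in DKO against Rb1 KO. In the difference between these 38.3% passed (18.8% up and 19.5% down).

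**Figure D3:**
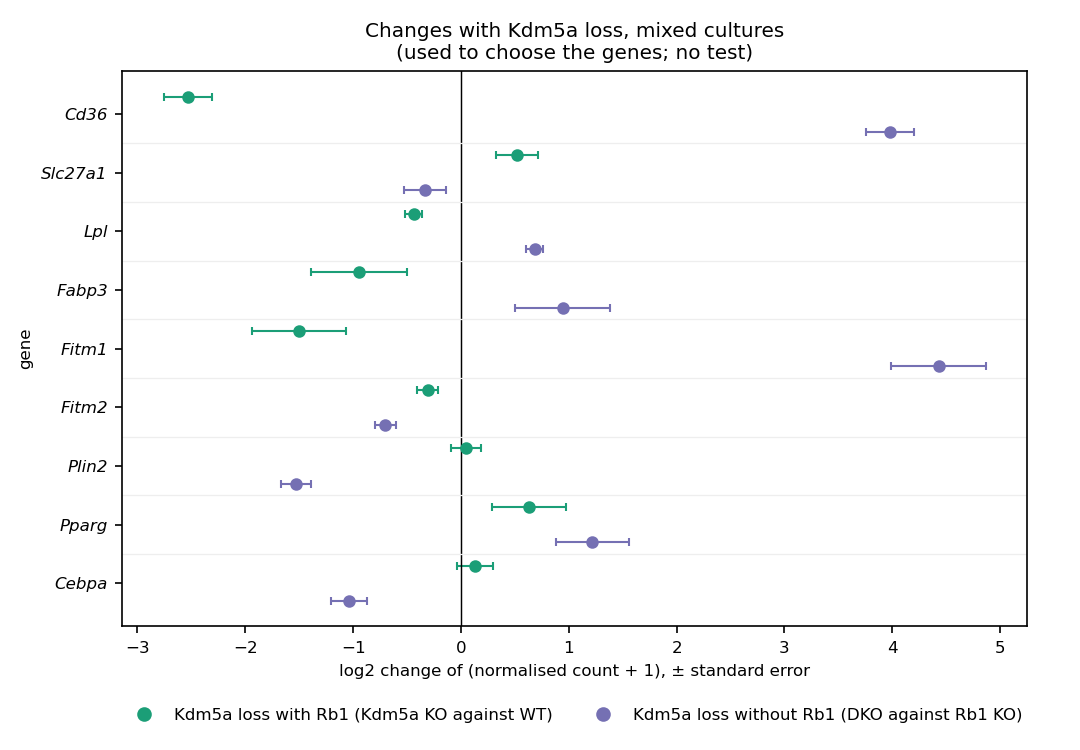
Log2 difference of (normalised count + 1) with its standard error for Kdm5a KO against WT (Rb1 present) and DKO against Rb1 KO (Rb1 absent) in mixed cultures, a description without a test. Cd36 lies at -2.53 and 3.98 and Fitm1 at -1.50 and 4.43, on opposite sides of 0.

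Purified myotubes were compared between WT and DKO. DKO myotubes had lower Cd36, Lpl, Fabp3, Fitm2 and Plin2 and higher Slc27a1 and Pparg than WT myotubes, and Fitm1 and Cebpa did not pass. These 7 calls, 2 upwards and 5 downwards among 9 genes, stand against 39.6% of all 16670 tested genes (21.0% up and 18.6% down). The median change was -0.78 over the 9 genes and -0.05 over all tested genes. Without WT purified replicate 1, 3 of the 9 passed (11.9% of all genes), and without replicate 2, 4 of the 9 (13.0% of all genes). Muscle marker sums were 701235 to 721568 in WT and 246789 to 267632 in DKO myotubes, fibroblast sums were 18171 to 21978 and 27199 to 34794, and endothelial sums 1003 to 1085 and 1766 to 1980. The macrophage sum was 2113 to 2277 in WT and 756 to 1352 in DKO myotubes, with Itgam at a mean of 1796 and 234, Adgre1 at 0 in both groups, and 1 of 5 tested markers higher and 3 lower by limma. The adipocyte sum was 119 to 138 in WT and 322 to 341 in DKO, with Cfd at 0 in both groups and 2 of 3 tested markers higher. The part of other cell types in these differences was not tested.

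Cd36 was at 2355 and 2098 in WT myotubes and at 563 and 275 in DKO myotubes. The groups were far apart although the DKO libraries differed from each other. Cd36 fell by 2.49 (SE 0.37, limma adjusted p = 0.00729), but did not pass without WT purified replicate 1 (-2.41 ± 0.59, limma adjusted p = 0.0533). Fabp3 was at 279 and 340.4 in WT myotubes and 16.3 and 25.1 in DKO myotubes, a 15.0-fold lower mean, and gave the largest change of the set (-3.86 ± 0.35, limma adjusted p = 0.00210). Lpl was at 2783 and 2696 against 559 and 518 (-2.35 ± 0.18, limma adjusted p = 0.00161). Slc27a1 rose from 68.8 and 57.1 to 319 and 460.4 (2.59 ± 0.30, limma adjusted p = 0.00388). DKO and WT libraries did not overlap for these 4 genes, and for 8 of the 9 in all, 2 higher and 6 lower in DKO, against 75.9% of all tested genes (37.1% higher and 38.8% lower).

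Of the droplet genes, Fitm2 and Plin2 passed. Fitm1 was at 158 and 118 in WT and 73.2 and 85.8 in DKO myotubes and did not pass (-0.78 ± 0.30, limma adjusted p = 0.0968), although the libraries did not overlap. Fitm2 was at 2171 and 2099.5 against 1247 and 1244 (-0.78 ± 0.18, limma adjusted p = 0.0239), and Plin2 at 832 and 875 against 419.6 and 263 (-1.36 ± 0.29, limma adjusted p = 0.0188). Without WT purified replicate 1 neither passed (limma adjusted p = 0.335 for Fitm2 and 0.155 for Plin2), nor without replicate 2 (0.304 and 0.167). Pparg rose from 26.0 and 24.8 to 65.0 and 58.6 (1.25 ± 0.34, limma adjusted p = 0.0391). It did not pass without WT purified replicate 1 (limma adjusted p = 0.242) or replicate 2 (0.259), without the filter on low values (0.0569) or with DESeq2 (adjusted p = 0.119). Cebpa was at 195 and 171 in WT and 148 and 201 in DKO (-0.09 ± 0.28, limma adjusted p = 0.820), with overlapping libraries.

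The DKO effect itself differed between purified myotubes and mixed cultures for 4 of the 9 genes. Of all 17273 genes in that fit 24.8% passed (11.6% up and 13.2% down). The mixed libraries in this difference also took part in choosing Cd36, so its p-value is not independent of the choice. The effect was lower in purified myotubes for Cd36 (-2.54 ± 0.47, limma adjusted p = 0.00383), Lpl (-1.11 ± 0.16, limma adjusted p = 0.000956) and Fabp3 (-2.67 ± 0.58, limma adjusted p = 0.00880), and higher for Slc27a1 (1.02 ± 0.33, limma adjusted p = 0.0456). The Slc27a1 call was lost without each of the 8 libraries compared except DKO purified replicate 1 (limma adjusted p = 0.0659 to 0.146) and without the filter on low values (0.0605). Plin2 (-0.91 ± 0.31, limma adjusted p = 0.0560) and Cebpa (0.89 ± 0.29, limma adjusted p = 0.0513) did not pass. Cebpa passed with a pseudocount of 5 (limma adjusted p = 0.0493), a minimum mean of 50 (0.0439), TMM scaling (0.0475), edgeR (0.0378) and DESeq2 (0.0242), and Plin2 passed with DESeq2 (0.0317). Without DKO purified replicate 1, 7 of the 9 passed, where 52.0% of all genes did, with Plin2 (-1.24, limma adjusted p = 0.000221), Cebpa (1.10, limma adjusted p = 0.00329) and Fitm2 (0.40, limma adjusted p = 0.0255) added. Purified and mixed libraries differ in RNA selection, read length, amplification and recovery after sorting as well as in cell content, and these cannot be told apart.

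Between fractions of one genotype, WT myotubes had 4 of the 9 genes higher and 0 lower than WT mixed cultures, against 55.6% of all genes passing (27.0% up and 28.6% down). Fabp3 rose from 51.4 ± 1.80 to 310 ± 43.4 (2.56 ± 0.41, limma adjusted p = 0.000450), Fitm2 by 1.31 ± 0.11, Plin2 by 1.18 ± 0.22 (limma adjusted p = 0.00103) and Cd36 by 1.38 ± 0.33 (limma adjusted p = 0.00511). In a fit of those 2 groups alone Fitm1 also passed, downwards (-0.69, limma adjusted p = 0.0327). The Cd36 call ended without WT mixed replicate 1 (1.11, limma adjusted p = 0.0530). DKO myotubes had 3 genes higher and 3 lower than DKO mixed cultures, against 59.4% of all genes (27.9% up and 31.5% down). The mixed libraries took part in choosing Cd36 and Fitm1, so the p-values of both genes between fractions are not independent of the choice. Fitm2 (1.71 ± 0.11) and Slc27a1 (0.97 ± 0.23) rose and Lpl fell (-1.26 ± 0.11), each at limma adjusted p of 0.00457 or less. Cd36 (-1.16 ± 0.33, limma adjusted p = 0.0123), Fitm1 (-1.33 ± 0.47, limma adjusted p = 0.0310) and Cebpa (0.53 ± 0.21, limma adjusted p = 0.0479) passed, and all 3 ended without DKO mixed replicate 1 (limma adjusted p = 0.0614, 0.118 and 0.125). Fitm1 ended also without DKO mixed replicate 2 (limma adjusted p = 0.0922) or DKO purified replicate 1 (0.0504), Cebpa without DKO mixed replicate 2 (0.165) or the filter on low values (0.0598), and in a fit of those 2 groups alone Cd36 (0.0687) and Cebpa (0.154) did not pass.

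Per kilobase of exon, the order of the set changed with the group. In WT mixed cultures Lpl (290.0), Cd36 (242), Fitm1 (234) and Fitm2 (217) led. In Rb1 KO Plin2 (227) and Fitm2 (156) led, and Cd36 (15.4) ranked 6 and Fitm1 (9.98) ranked 8 of the 10 genes. In DKO mixed cultures Cd36 (245) and Fitm1 (207) led, and in WT myotubes Cd36 (620.3), Fitm2 (538) and Fabp3 (376). In DKO myotubes Fitm2 (314) led and Cd36 (117) followed. Fabp4 was lowest in each of the 6 groups.

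Other genes of these pathways moved in both directions with Rb1 loss, and their shares are to be read against the 36.8% up and 34.3% down among all genes. Of 27 other uptake and activation genes, 19 were tested in Rb1 KO against WT, and 7 rose, 11 fell and 1 did not pass (median -0.46). The muscle caveolin gene Cav3 fell from 3668 ± 67.5 to 166 ± 26.5 (-4.47 ± 0.11), and Acsl4, which activates arachidonate and other long-chain fatty acids, fell by 2.05 (SE 0.05). Of 32 droplet and triglyceride genes 29 were tested, and 8 rose, 14 fell and 7 did not pass (median -0.34). Dgat2, which makes triglyceride, fell (-1.91 ± 0.15), while the cholesterol-esterifying Soat1 (1.89 ± 0.09) and the phosphatidate phosphatase Lpin1 (1.82 ± 0.12) rose. Of 34 adipogenic regulators 11 rose, 12 fell and 11 did not pass (median 0.05). The preadipocyte factors Zfp423 (2.96 ± 0.15) and Ebf1 (2.40 ± 0.10) were among those that rose, and do not stand for the list. Of 25 PPAR-responsive oxidation genes 22 were tested, and 6 rose, 12 fell and 4 did not pass (median -0.58). The named genes each passed limma at an adjusted p of 1.51e-07 or less.

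From Kdm5a KO to DKO the same 4 lists gave 5, 6, 13 and 4 genes that rose and 11, 14, 14 and 15 that fell, with medians of -0.49, -0.39, -0.10 and -0.88, against 33.7% up and 33.4% down among all genes. Cav2, a caveolin of many non-muscle cells, rose from 114 ± 13.3 to 1114 ± 3.48 (3.28 ± 0.13, limma adjusted p = 4.23e-10), and Dgat2 fell (-2.43 ± 0.15, limma adjusted p = 2.04e-08). With Kdm5a loss in the presence of Rb1, 3, 6, 3 and 3 genes of the lists rose and 2, 2, 9 and 2 fell, against 13.4% up and 13.8% down among all genes. Angptl4, an inhibitor of lipoprotein lipase, fell from 25.8 ± 10.9 to 3.0 ± 1.7 (-2.75 ± 0.41, limma adjusted p = 0.000352), and Soat1 (1.30 ± 0.09, limma adjusted p = 1.01e-06) and Zfp423 (1.97 ± 0.15, limma adjusted p = 2.83e-06) rose. In the Kdm5a KO libraries 1 read was worth 0.904 and 0.700, so the Angptl4 level there rests on few reads. Zfp423 was 1 of the 3 adipogenic regulators that rose, where 9 fell. From Rb1 KO to DKO 7, 5, 5 and 8 rose and 8, 9, 9 and 5 fell, against 23.1% up and 24.2% down. Acsl4 (0.75 ± 0.05, limma adjusted p = 2.31e-07) and Cav3 (1.48 ± 0.11, limma adjusted p = 2.66e-07) rose, and Cpt1a, the gate of mitochondrial oxidation, fell from 849 ± 2.48 to 218 ± 26.3 (-1.96 ± 0.13, limma adjusted p = 1.05e-07).

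In purified myotubes, DKO against WT gave 3, 5, 8 and 2 genes of the lists that rose and 6, 5, 4 and 5 that fell of 19, 29, 33 and 21 tested (medians -0.35, 0.06, 0.58 and -0.50), against 21.0% up and 18.6% down among all genes. Angptl4 rose from 7.45 ± 0.0086 to 48.6 ± 6.69 (2.55 ± 0.42, limma adjusted p = 0.00946), and Cav3 (-1.64 ± 0.27, limma adjusted p = 0.00972) and Dgat2 (-1.63 ± 0.24, limma adjusted p = 0.00718) fell. In the WT purified libraries 1 read was worth 1.86 and 1.24, so the Angptl4 level there rests on few reads. Its small SD does not measure precision. Rxrg, the muscle-enriched partner of PPAR receptors, fell from 344 ± 65.4 to a mean of 0.81 (limma adjusted p = 0.00159), and Dlk1, which restrains adipocyte differentiation, fell by 3.08 (SE 0.36, limma adjusted p = 0.00381).

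**Figure D4:**
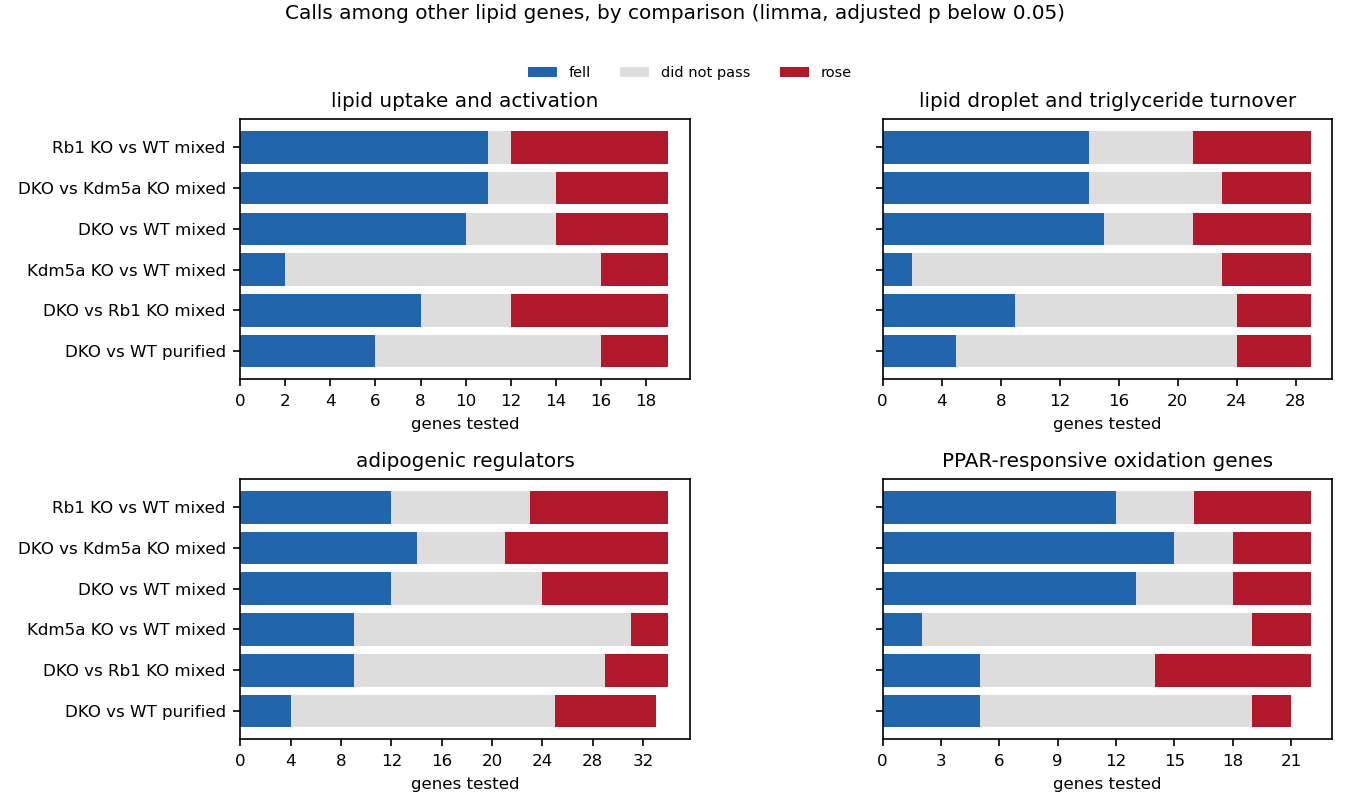
Number of tested genes in 4 lists of other lipid genes that fell, did not pass or rose (limma, adjusted p below 0.05) in 6 comparisons; each bar is 1 comparison and its length is the number tested. In Rb1 KO against WT 11, 14, 12 and 12 genes of the lists fell and 7, 8, 11 and 6 rose.

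Among 12957 genes with a mean of 50 or more, those with the pattern most like Cd36 over the 8 mixed libraries by Pearson correlation of log2 levels were Eya3 (r = 0.982), Prkab1 (0.978), Cacna2d1 (0.978), Fras1 (0.976) and Zfp180 (0.968). Those most like Fitm1 were Plekhh1 (0.989), Gldc (0.982), Prkaa2 (0.978), Crb1 (0.973) and Atcayos (0.973). Their spans were narrower than those of Cd36 and Fitm1: Fras1 went from 1826 in WT to 1088 in Kdm5a KO, 612 in Rb1 KO and 1752 in DKO, and Plekhh1 from 3158 to 2068, 946 and 3122. Prkab1 and Prkaa2, which encode subunits of the AMP-activated kinase, went from 851 to 682, 554 and 835 and from 1977 to 1898, 1325 and 2027. The points are 4 genotypes in pairs, so each correlation rests on the same few group differences.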

How the data were processed

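The authors deposited 1 table of normalised read counts (a signal of reads divided by a size factor per library) for 36229 Ensembl gene identifiers in 12 libraries. Per the submitters' processing notes, TopHat 1.2.0, DESeq and the build mm9 were used; the counting program, its strand setting and the annotation are not given in the sources used here. Dividing by the value of 1 read gave whole reads for all values within 0.01, and those reads were used for DESeq2 1.42.0 and edgeR 4.0.16. The values already carry each library's scaling, so differences in total RNA per culture are not seen.

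Symbols were matched for 30983 identifiers (85.5%). The test was limma 3.58.1 (R 4.3.3, with intensity trend) on log2(value + 1), which understates changes of low genes, for genes with a mean of at least 10, with Benjamini-Hochberg adjustment over all genes of a fit and a threshold of 0.05. The 8 mixed libraries (17199 genes), the 4 purified libraries (16670) and all 12 (17273) were each fitted together, without a replicate block. Fabp4 failed the filter in each fit. The Rb1 effects of Cd36 and Fitm1 in mixed cultures, planned as tests, are given as a description. The fits were tested on simulated data with the same spread in every library. The DKO purified libraries spread more widely than the others, so this does not vouch for the purified fit. Exonic lengths and overlaps come from an annotation of build GRCm38, used for no coordinates.

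The genes and lists were chosen with earlier results of these data known. Named beyond the 10 genes were up to 4 per list with the smallest p among those past the threshold whose libraries did not overlap, and the 5 genes most like Cd36 and Fitm1. The lists were lipid uptake and activation, droplet and triglyceride turnover, adipogenic regulators and PPAR-responsive oxidation genes, with 4 older symbols unmatched. The marker lists were adipocyte (Adipoq, Cfd, Lep, Retn, Plin1, Cidec, Adrb3, Slc36a2, Pck1, Acvr1c, Tshr, Lgals12), endothelium (Pecam1, Cdh5, Kdr, Tek, Tie1, Emcn, Robo4, Esam, Egfl7, Cldn5, Vwf, Erg), macrophage (Adgre1, Csf1r, Ptprc, Cd68, Cd14, Itgam, Lyz2, Tyrobp, Fcer1g, C1qa, C1qb, Mrc1), differentiated muscle (Myh3, Myh8, Myh1, Ckm, Acta1, Actn2, Tnnt3, Tnnc2, Tnni1, Mylpf, Neb, Ttn, Myog, Ryr1) and fibroblast (Col1a1, Col1a2, Col3a1, Col5a2, Dcn, Lum, Postn, Thy1, Pdgfra, Fbln1, Fn1, S100a4). Alternatives were other pseudocounts (0.5 and 5), filters (none, and a mean of 50), TMM scaling, edgeR, DESeq2, fits of the compared groups alone, a replicate block and leaving out each library.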

Additional observations from a re-analysis of the deposited data

Results flagged for a closer look

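The effect of losing both Kdm5a and Rb1 differed between purified myotubes and mixed cultures for 4 genes, by the limma test of the difference over all 12 libraries. The difference, purified minus mixed, was -2.54 for Cd36 (adjusted p = 0.00383), -1.11 for Lpl (limma adjusted p = 0.000956) and -2.67 for Fabp3 (limma adjusted p = 0.00880), each lower in purified myotubes. It was 1.02 for Slc27a1 (limma adjusted p = 0.0456), higher in purified myotubes, but this call ended without 7 of the 8 libraries in turn (limma adjusted p = 0.0659 to 0.146), without the filter on low values (0.0605) and with a replicate block (0.0594). Fraction and library preparation cannot be told apart. The mixed libraries also took part in choosing Cd36, so its p-value is not independent of that choice.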

How the results depend on the processing

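Over all alternatives the tested values of the 9 genes kept direction and side of the threshold in 708 of the cases, lost a call in 44, gained one in 13 and reversed in 10. None of the reversed values passed the test, and each came from leaving out 1 library. The ranges over those fits were -0.15 to 0.28 for Cebpa in Rb1 KO against WT (reversed without Rb1 KO replicate 1), -0.23 to 0.32 for Cd36 in DKO against WT mixed (without WT replicate 1) and -0.48 to 0.21 for Fitm1 there (without WT replicate 2). They were -0.30 to 0.13 for Cebpa in purified DKO against WT (without WT replicate 1 or DKO replicate 1) and -0.18 to 0.083 for Slc27a1 in WT purified against mixed (without WT mixed replicate 1 or WT purified replicate 2). In DKO purified against mixed they were -0.40 to 0.19 for Fabp3 (without DKO mixed replicate 2 or DKO purified replicate 1) and -0.059 to 0.61 for Plin2 (without DKO purified replicate 1).

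Leaving out 1 library gave 3057 to 4251 calls in Kdm5a KO against WT (4685 with all). In DKO against WT purified it gave 1983 to 11574 calls (6598 with all), with 3 to 7 of the 9 genes (7 with all). For the difference of the DKO effect it gave 2471 to 8989 calls (4292 with all), with 3 to 7 of the 9 genes (4 with all), and in DKO purified against mixed 3 to 6 of the 9 (6 with all). The lowest purified count came without WT purified replicate 1 and the highest without DKO purified replicate 1. A lone library left in a group is assumed to vary like the other groups.

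Replicate numbers are shared only as numbers: deviations of same-numbered libraries correlated at -0.047 to 0.052. With the replicate block, calls in Rb1 KO against WT numbered 12196 (12237 without it) and in purified DKO against WT 7629 (6598 without it). The block ended the calls of Pparg in purified DKO against WT (limma adjusted p = 0.0508), Slc27a1 in the difference of the DKO effect (0.0594) and Cebpa in DKO purified against mixed (0.0610). With 2 libraries a group and 5 reads of Fabp3 or Fitm1 in single Rb1 KO libraries, small changes of these low genes cannot be resolved. TMM scaling moved the median of all genes by 0.05 or less on the log2 scale.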
